A study of Mus musculus with 13 samples.

Results

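The 9 genes described belong to the fibroblast growth factor (FGF) system: the ligands Fgf7, Fgf10 and Fgf2, the receptors Fgfr1, Fgfr2 and Fgfr3, and the Sprouty feedback inhibitors Spry1, Spry2 and Spry4. They were picked by symbol from a table of 24394 genes; all 9 were found and all 9 passed the filter on low counts. The set holds 3 intracellular inhibitors beside its receptors and ligands. The study's 13 mouse RNA libraries address whether fibroblasts made to express Foxn1, the transcription factor of thymic epithelial cells (TEC), take on TEC expression. Mouse embryonic fibroblasts (MEF) of E13.5 embryos, untreated, formed the fibroblast control group (n = 2). Induced TEC (iTEC) came from iFoxn1/+ MEF, passaged no more than 5 times, that received the Cre plasmid pPGK-Cre-bpA by nucleofection. They were taken at day 2 (n = 2), at day 10 (n = 3), and at day 12 after sorting as Epcam-positive (n = 2) or Epcam-negative (n = 2), Epcam being an epithelial surface protein. Untreated fetal TEC came from E15.5 embryos (n = 2). The genotype label is N/A in every library. The growth text names iFoxn1/+ for all of them, so whether fetal TEC carry that allele is not given. The protocol text, the same for every library, has nucleofected cells sorted by flow cytometry after culture, and names no control plasmid. Cre was driven by the PGK promoter, which is active in most cell types.

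In the embryo, mesenchymal cells secrete FGF7 and FGF10, and nearby epithelial cells answer through an epithelial splice form of FGFR2. This exchange drives growth of many epithelia, thymic epithelium among them. FGF2 acts mainly through FGFR1 and other mesenchymal splice forms, and receptor activity runs through the RAS and ERK kinases. ERK activity in turn induces Sprouty proteins, which damp the same pathway. Counts per gene do not separate the splice forms.

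Promoters of 7 of the 9 genes stand in the RefSeq table of GRCm38.p6. The 250 bases upstream of the start were searched on both strands for GACGC, the core that Foxn1 is known to bind, which reads GCGTC on the other strand. They were also searched for the ETS core CCGGAA, which is read there as TTCCGG. The windows of 3 genes are printed because the results below turn on these genes: a ligand of MEF, the receptor of fetal TEC and the inhibitor whose group means ran against those of Spry2 at day 2. They lie at chr2:126034408-126034657 (plus strand) for Fgf7, chr7:130266809-130267058 (minus strand) for Fgfr2 and chr3:37639697-37639946 (plus strand) for Spry1. Capitals mark the Foxn1 core.
Fgf7: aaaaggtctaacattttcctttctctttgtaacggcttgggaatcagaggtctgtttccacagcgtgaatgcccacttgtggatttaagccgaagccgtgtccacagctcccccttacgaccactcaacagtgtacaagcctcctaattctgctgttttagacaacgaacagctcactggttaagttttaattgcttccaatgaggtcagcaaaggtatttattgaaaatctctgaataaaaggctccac
Fgfr2: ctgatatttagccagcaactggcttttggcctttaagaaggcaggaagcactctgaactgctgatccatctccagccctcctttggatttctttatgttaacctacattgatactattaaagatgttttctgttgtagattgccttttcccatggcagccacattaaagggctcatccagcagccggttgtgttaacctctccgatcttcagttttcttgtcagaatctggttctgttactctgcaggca
Spry1: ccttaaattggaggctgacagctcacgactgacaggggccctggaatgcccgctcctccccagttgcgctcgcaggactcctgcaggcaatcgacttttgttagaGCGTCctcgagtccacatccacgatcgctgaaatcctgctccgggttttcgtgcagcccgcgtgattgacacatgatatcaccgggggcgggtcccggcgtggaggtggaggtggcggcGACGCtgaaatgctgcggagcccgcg

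The Spry1 window holds the Foxn1 core at 2 places, with first bases 145 and 26 bases before the start. The Fgf2 window (chr3:37348403-37348652) holds it at 3 places. That window runs past the Fgf2 gene start of 37348477, and all 3 places lie after that start. Of the 2 Fgfr3 windows, that ahead of the gene start holds it once, and the other lies within the gene. The core does not occur in the windows of Fgf7, Fgf10, Fgfr2 and Spry2. Of all 32851 promoter windows of 250 bases, 22.6% hold the core. The ETS core occurs in none of the windows of these 7 genes and in 12.0% of all windows.

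Libraries held 35805780 to 86465460 counts, so that 3 counts in a library correspond to 0.0300 to 0.0776 CPM (counts scaled to library size with TMM factors). Values of Gapdh, Xist and Y-linked genes and sums of marker genes are CPM by library size alone, without TMM factors. Foxn1 itself had 292 to 468 CPM in iTEC and fetal TEC, against at most 18.3 CPM in MEF. In 3 libraries, both of fetal TEC and the second Epcam-positive one, Spearman's rho between count and transcript length was -0.156 to -0.230, whereas it was 0.233 to 0.301 in the other 10. The same 3 libraries held 99.2 to 147 CPM of Gapdh, against 0 to 7.84 CPM in the other 10, and 0.0364 to 0.0789% of their counts lay on Rn45s, against 0.268 to 3.62%. Epcam was at 4.80 and 30.6 CPM in Epcam-positive cells, 0.560 and 0.290 CPM in Epcam-negative cells, and 312 and 574 CPM in fetal TEC. At day 10 it was at 5.03, 5.05 and 5.53 CPM, so that Epcam-positive replicate 1 was not above the day 10 libraries in Epcam. Xist was at 795 to 2278 CPM in MEF and Epcam-negative libraries and at 0 to 8.21 CPM elsewhere, while Y-linked genes summed to 32.8 to 326 CPM elsewhere and to at most 0.0164 CPM in MEF and Epcam-negative libraries. Day 2, day 10 and Epcam-positive cells and fetal TEC therefore differed from MEF and Epcam-negative cells in sex-linked RNA. These MEF, without a Y-linked count, thus do not stand for the cells that day 2 and day 10 cells came from. Both day 12 groups likewise cannot be read as parts of 1 culture of a single sex, split by sorting. The comparisons of day 2, day 10 and fetal TEC with MEF, and that between both day 12 groups, carry this sex-linked difference beside that of treatment, origin or sorting. Both fetal TEC libraries and neither MEF library are among the 3 with the opposite length trend. Fetal TEC against MEF thus also carries the difference in length trend, Gapdh and Rn45s, which cannot be told apart from that of origin. The labels do not say whether replicates came from separate animals or cultures. The p-values thus measure the spread between these libraries, which may be technical.

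Fgf7, the keratinocyte growth factor (2:126034658-126091185, plus strand, mm10), was highest in MEF and at day 2. It was at 58.5 and 111 CPM in MEF, at 105 and 80.2 CPM at day 2, and at 7.97, 8.20 and 8.40 CPM at day 10. At day 12 it was at 8.54 and 4.52 CPM in Epcam-positive cells and at 7.28 and 6.81 CPM in Epcam-negative cells, and fetal TEC held 2.24 and 0.730 CPM. Every later iTEC library lay below every MEF and day 2 library, and fetal TEC lay below all iTEC libraries. MEF and day 2 overlapped, as did both day 12 groups, and these neighbours in the order of levels do not differ beyond their spread.

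Fgf7 fell at day 10 against MEF by 3.37 ± 0.48 on the log2 scale (± SE, edgeR quasi-likelihood test, Benjamini-Hochberg adjusted p = 0.00169), 10.4-fold. Against day 2 it fell by 3.50 ± 0.49 at day 10 (adjusted p = 0.00169). Epcam-negative cells of day 12 were lower than MEF by a log2 of -3.59 ± 0.57 (adjusted p = 0.00357), and fetal TEC by -5.83 ± 0.64 (adjusted p = 0.000195), 56.9-fold. Between day 2 and MEF the log2 difference was 0.13 ± 0.52 (adjusted p = 1). Epcam-positive cells were higher than fetal TEC by 2.13 ± 0.54 (adjusted p = 0.0154). That call was lost without fetal TEC replicate 2 (log2 1.56, adjusted p = 0.0636) and in a fit of these 4 libraries alone (adjusted p = 0.518), and the log2 was 3.17 without fetal TEC replicate 1. Against Epcam-negative cells, Epcam-positive cells gave -0.11 ± 0.52 (adjusted p = 0.948).

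Markers of other cell types moved with Fgf7 in part. Marker sums are scaled by library size alone, without the TMM factors used for Fgf7. The summed level of 11 mesenchyme markers was 59044 and 57567 CPM in MEF, 8043 and 9261 CPM at day 2 and 14430 to 15589 CPM at day 10. It was 32774 and 2026 CPM in Epcam-positive cells, 13527 and 12699 CPM in Epcam-negative cells, and 4204 and 2085 CPM in fetal TEC; none of the 11 markers was at 0 in any library. From day 2 to day 10, where Fgf7 fell, the marker sum was thus higher at the later time. The 10 macrophage markers summed to 3020 and 2888 CPM in MEF and to 486 and 402 CPM in fetal TEC, with 216 and 8.31 CPM in Epcam-positive cells and 4.51 to 7.31 CPM in the other iTEC libraries, where Adgre1 and C1qa were at 0. The 9 thymocyte markers summed to 1273 and 474 CPM in fetal TEC, against at most 17.5 CPM in any other library. Of these 9 markers, 8 were called higher in fetal TEC than in MEF, where 31.5% of all genes were. All 9 were called lower in Epcam-positive cells than in fetal TEC, where 16.4% of all genes were. The part of these cells in the differences from MEF and from fetal TEC was not tested. In bulk RNA, fewer cells of a type and less RNA per cell cannot be told apart.

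Fgf10, another ligand of the epithelial FGFR2 form (13:118714699-118792573, plus strand), was low throughout. It was at 6.96 and 7.22 CPM in MEF, at 5.86 and 6.90 CPM at day 2 and at 3.33, 2.90 and 2.84 CPM at day 10. Epcam-positive cells held 3.98 and 0.205 CPM, Epcam-negative cells 2.47 and 6.68 CPM, and fetal TEC 1.01 and 0.122 CPM. MEF had the highest mean and fetal TEC the lowest; all groups between day 2 and fetal TEC overlapped their neighbour in that order. Fetal TEC were lower than MEF by a log2 of -3.63 ± 1.28 (adjusted p = 0.0349). The call was lost in the fits without either MEF library (adjusted p = 0.0775 and 0.0913), without fetal TEC replicate 2 (log2 -2.82, adjusted p = 0.136), without any 1 day 2 or day 10 library (adjusted p up to 0.0536) and with library size as the sole scaling (adjusted p = 0.0503). A fit with the replicate number as a block lost the call too. Without fetal TEC replicate 1 the log2 was -5.85. At day 10 the log2 against MEF was -1.23 ± 1.04 (adjusted p = 0.496), although the samples did not overlap. The other Fgf10 comparisons did not pass either: -0.15 ± 1.15 at day 2 against MEF, -1.08 ± 1.04 at day 10 against day 2 and -0.63 ± 1.15 in Epcam-negative cells against MEF. Epcam-positive cells gave -1.12 ± 1.17 against Epcam-negative cells and 1.88 ± 1.20 against fetal TEC (adjusted p = 0.607 and 0.241).

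Fgf2, basic FGF (3:37348477-37410106, plus strand), peaked at day 2 in level. It was at 2.47 and 3.31 CPM in MEF, 15.7 and 16.0 CPM at day 2 and 6.07, 6.05 and 5.95 CPM at day 10. Epcam-positive cells held 9.26 CPM in replicate 1 and no count in replicate 2, Epcam-negative cells held 5.36 and 5.34 CPM, and no count was found in either fetal TEC library. Both libraries of day 2 lay above all others, and the 3 libraries without a count are those in which counts fell with transcript length; its longest coding transcript, 5.973 kb, is the longest among the 9 genes. The part of that length dependence was not tested. Day 2 and MEF differed by a log2 of 2.45 ± 1.62, which did not pass (adjusted p = 0.531). Nor did day 10 against MEF (1.06 ± 1.45) or day 2 (-1.39 ± 1.38), Epcam-negative cells against MEF (0.89 ± 1.55) or Epcam-positive against Epcam-negative cells (-0.20 ± 1.53). These standard errors draw on the spread of all 13 libraries. A fit of only the groups compared called Fgf2 at day 2 against MEF and at day 10 against both, but in neither of these day 12 comparisons. Against MEF, fetal TEC were at least 110.5-fold lower, with a floor of 3 counts over both fetal TEC libraries (adjusted p = 0.0143; 0.0635 and 0.0606 without fetal TEC replicates 1 and 2). Epcam-positive cells were at least 177-fold higher than fetal TEC by the same floor (adjusted p = 0.0183), a value that rests on replicate 1 alone, since without it both groups are at 0. The call was also lost without fetal TEC replicate 1 or 2 and with the replicate number as a block. On the opposite strand, Nudt6 shares 640 bases of exon with Fgf2, and Gm43439 shares 255 bases on the same strand; with strand use unknown, reads of these genes cannot be told apart there.

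**Figure D1:**
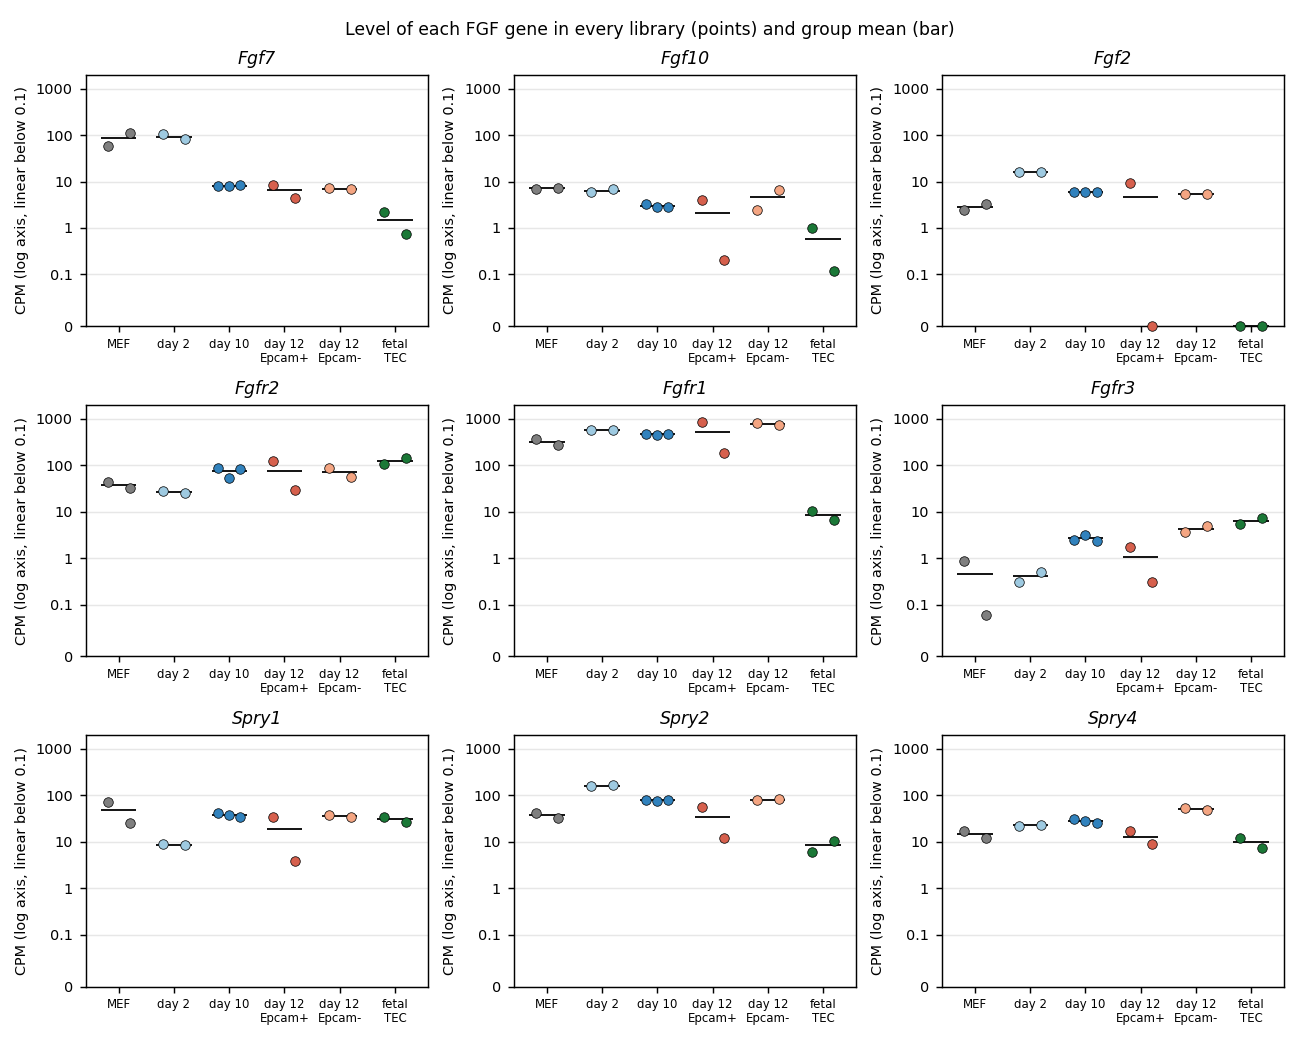
Level of the 9 FGF genes in each of the 13 libraries (CPM, log axis that is linear below 0.1); points are libraries and bars are group means, for MEF, day 2, day 10, day 12 Epcam-positive, day 12 Epcam-negative and fetal TEC. Fgf7 sits at 58.5 to 111 CPM in MEF and day 2 and at 0.730 to 8.54 CPM elsewhere, while Fgfr1 drops to 6.57 and 10.2 CPM in fetal TEC alone.

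Among receptors, Fgfr1, the main receptor of fibroblasts (8:25518759-25575718, plus strand), was the most abundant of the 3 in every library but those of fetal TEC. It was at 368 and 277 CPM in MEF, 579 and 568 CPM at day 2 and 470.0, 457 and 479 CPM at day 10. Epcam-positive cells held 845 and 181 CPM, Epcam-negative cells 823 and 729 CPM, and fetal TEC 10.2 and 6.57 CPM. All iTEC libraries except Epcam-positive replicate 2 lay above both MEF libraries, and every iTEC library lay far above fetal TEC. Fgfr1 was lower in fetal TEC than in MEF by a log2 of -5.26 ± 0.67 (adjusted p = 0.000412), 38.4-fold. A length offset, which removes each library's trend with transcript length, left the fetal TEC difference from MEF at -3.88 (adjusted p = 2.34e-05). Epcam-positive cells were higher than fetal TEC by 5.93 ± 0.69 (adjusted p = 0.00041), 61.0-fold. Without Epcam-positive replicate 1 that log2 was 4.44, without replicate 2 it was 6.66, with the length offset 5.10, and in a fit of these 4 libraries alone the call was lost (5.96, adjusted p = 0.0676).

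The iTEC differences of Fgfr1 from MEF did not pass in the fit of all libraries. They were 0.83 ± 0.56 at day 2 (adjusted p = 0.54), 0.54 ± 0.52 at day 10 (adjusted p = 0.557) and 1.27 ± 0.57 in Epcam-negative cells (adjusted p = 0.192). Day 10 against day 2 gave -0.29 ± 0.51 (adjusted p = 0.835). A fit of only the groups compared called Fgfr1 in these comparisons, except for day 2 against MEF. Epcam-positive against Epcam-negative cells gave -0.60 ± 0.56 (adjusted p = 0.567), with overlapping samples.

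Fgfr2, the receptor for FGF7 and FGF10 (7:130162451-130266808, minus strand), was highest on average in fetal TEC. It was at 44.5 and 32.3 CPM in MEF, 27.3 and 25.4 CPM at day 2 and 86.9, 52.5 and 84.5 CPM at day 10. Epcam-positive cells held 122 and 29.0 CPM, Epcam-negative cells 86.6 and 55.3 CPM, and fetal TEC 106 and 143 CPM. The 3 day 10 libraries and both Epcam-negative libraries lay above MEF, day 2 lay below MEF, and the Epcam-positive pair spanned nearly the whole range. In the order of means, fetal TEC, Epcam-positive, day 10 and Epcam-negative cells overlapped their neighbours; Epcam-negative cells, MEF and day 2 did not. Fetal TEC exceeded MEF by a log2 of 1.70 ± 0.59 (adjusted p = 0.0318), 3.25-fold. That call was lost without either MEF library (adjusted p = 0.0767 and 0.164), either fetal TEC library (0.0552 and 0.119) or either day 2 library (0.0506 each) and with library size alone (0.0844); with the length offset it was 2.64 (adjusted p = 0.0011).

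In the fit of all libraries the iTEC differences of Fgfr2 did not pass. Day 10 exceeded MEF by 0.96 ± 0.54 (adjusted p = 0.278) and day 2 by 1.50 ± 0.55 (adjusted p = 0.114), while day 2 against MEF gave -0.54 ± 0.57 (adjusted p = 0.767) and Epcam-negative cells against MEF 0.89 ± 0.57 (adjusted p = 0.384). Without either Epcam-positive library, both day 10 differences were called at nearly the same size (adjusted p = 0.0323 and 0.0322 against MEF, 0.00517 and 0.00512 against day 2). The fit of only the groups compared called both too (adjusted p = 0.0393 and 0.00247), and DESeq2 (adjusted p = 0.0267) and the length offset (adjusted p = 0.0338) called that against day 2. Epcam-positive cells differed from Epcam-negative cells by 0.09 ± 0.57 (adjusted p = 0.974) and from fetal TEC by -0.73 ± 0.57 (adjusted p = 0.341). The difference from fetal TEC rests on which Epcam-positive library is used: it was -2.09 without replicate 1 (adjusted p = 0.00396) and -0.0203 without replicate 2 (adjusted p = 0.972). With the length offset it was -1.34 and was called (adjusted p = 0.0284). The GENCODE M21 model of Fgfr2 runs to 133123350, past the RefSeq end given above. In that model, Ctbp2 shares 314 bases of exon with Fgfr2 on the same strand.

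Fgfr3, a receptor of epithelia and cartilage (5:33721724-33737068, plus strand), was the scarcest receptor in every library but fetal TEC replicate 2. There Fgfr1 was lower, at 6.57 CPM. Fgfr3 was at 0.857 and 0.0802 CPM in MEF, 0.308 and 0.507 CPM at day 2 and 2.49, 3.18 and 2.38 CPM at day 10. Epcam-positive cells held 1.77 and 0.308 CPM, Epcam-negative cells 3.74 and 4.95 CPM, and fetal TEC 5.36 and 7.36 CPM. Fetal TEC, Epcam-negative cells and day 10 lay apart from each other in that order, and Epcam-positive cells, MEF and day 2 overlapped. Fetal TEC were higher than MEF by a log2 of 3.74 ± 1.11 (adjusted p = 0.0178). The value was 6.29 without MEF replicate 1, 2.87 without MEF replicate 2 (adjusted p = 0.0751), 3.48 without fetal TEC replicate 2 (adjusted p = 0.0506) and 4.63 with the length offset; MEF replicate 2 held 4 counts. At day 10 against MEF the log2 was 2.50 ± 1.01 (adjusted p = 0.13), and in Epcam-negative cells 3.19 ± 1.08 (adjusted p = 0.0892). Without MEF replicate 1 these were 5.00 and 5.70 and were called (adjusted p = 0.0453 and 0.0408), and without MEF replicate 2 they were 1.64 and 2.34 (adjusted p = 0.464 and 0.328); DESeq2 called both (adjusted p = 0.0299 and 0.00986). Day 2 against MEF gave -0.21 ± 1.02 (adjusted p = 1) and day 10 against day 2 gave 2.71 ± 1.02 (adjusted p = 0.126). Epcam-positive cells gave -2.05 ± 1.03 against Epcam-negative cells (adjusted p = 0.309) and -2.60 ± 1.05 against fetal TEC (adjusted p = 0.0792). Against fetal TEC it was -4.35 without Epcam-positive replicate 1 (adjusted p = 0.0183), -1.83 without replicate 2 (adjusted p = 0.15) and -3.24 with the length offset (adjusted p = 0.0261).

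The make-up of the receptors was compared per length, as CPM per kb of the longest coding transcript. Fgfr2 made up 88.2 and 91.6% of the 3 receptors in fetal TEC and Fgfr1 7.28 and 3.59%. In MEF, Fgfr2 made up 12.4 and 12.0% and Fgfr1 87.4 and 88.0%. Every iTEC library was on the MEF side: Fgfr2 had 5.22 and 4.96% at day 2, 17.7, 11.8 and 17.0% at day 10, 14.4 and 15.7% in Epcam-positive cells and 10.9 and 8.08% in Epcam-negative cells. Both Epcam-positive libraries gave nearly the same shares although their receptor levels differed several fold.

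The summed level of Fgf7 and Fgf10 over that of Fgfr2, again per kb, separated early from late libraries. The ratio was 2.29 and 5.78 in MEF and 6.42 and 5.39 at day 2, so the ligands exceeded the receptor. It was 0.188, 0.310 and 0.196 at day 10, 0.148 and 0.259 in Epcam-positive cells, 0.166 and 0.326 in Epcam-negative cells, and 0.0440 and 0.00911 in fetal TEC. All libraries from day 10 on lay below 1, none overlapped MEF or day 2, and fetal TEC lay lowest. No test was run on this ratio.

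**Figure D2:**
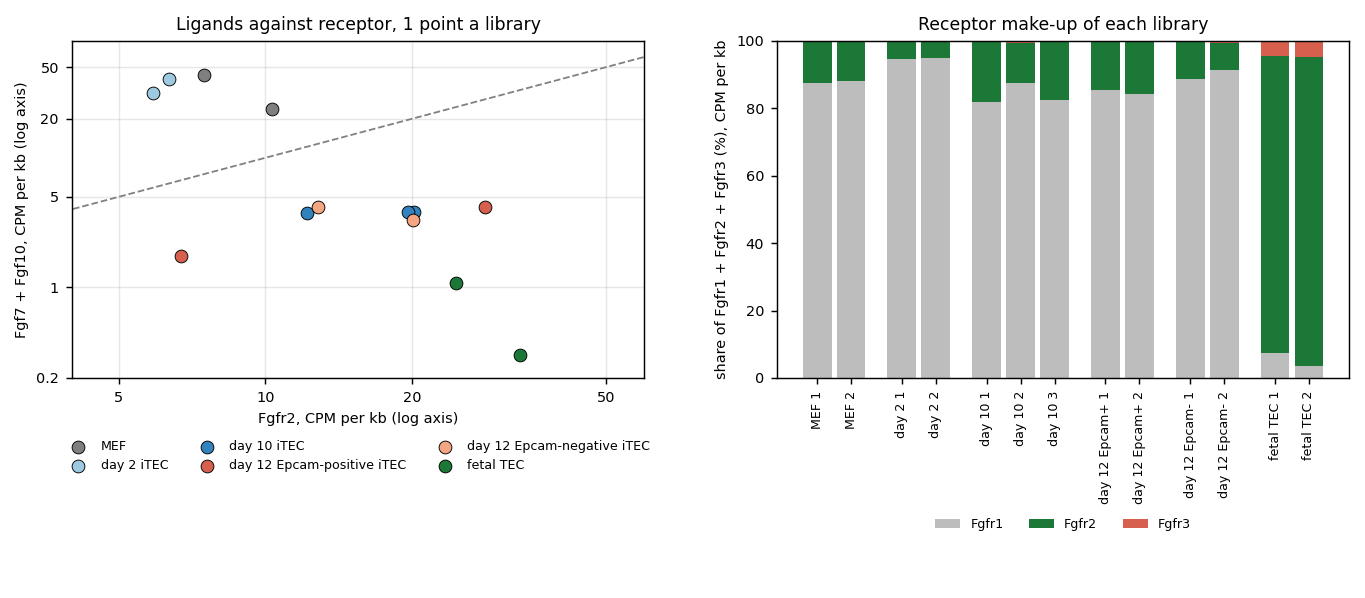
Left, summed Fgf7 and Fgf10 against Fgfr2 (CPM per kb, log axes, 1 point a library, dashed line at equality); right, share of Fgfr1, Fgfr2 and Fgfr3 in their sum (%, from CPM per kb) in each library. MEF and day 2 lie above the line with ratios of 2.29 to 6.42, all others below it, and Fgfr2 leads only in fetal TEC, with 88.2 and 91.6%.

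The 3 Sprouty genes each took another course. Spry2 (14:105891947-105896819, minus strand) was at 42.1 and 32.9 CPM in MEF, 157 and 168 CPM at day 2 and 80.9, 75.7 and 81.1 CPM at day 10. Epcam-positive cells held 55.4 and 12.0 CPM, Epcam-negative cells 79.3 and 83.6 CPM, and fetal TEC 6.08 and 10.7 CPM. Day 2 lay above all other groups and fetal TEC below all. At day 2 the log2 over MEF was 2.12 ± 0.59, 4.33-fold, which did not pass (unadjusted p = 0.00499, adjusted p = 0.0719). A fit of only these groups called the difference. Spry2 was lower in fetal TEC than in MEF by a log2 of -2.16 ± 0.59 (adjusted p = 0.0126), 4.47-fold, a call lost without fetal TEC replicate 1 (-1.82, adjusted p = 0.0771) or MEF replicate 1 (-1.96, adjusted p = 0.0503); the length offset gave -3.10. Epcam-positive cells were higher than fetal TEC by 2.01 ± 0.59 (adjusted p = 0.026). Without Epcam-positive replicate 1 this was 0.53 (adjusted p = 0.172), without replicate 2 it was 2.74, and the call was lost without either fetal TEC library (1.67 and 2.48, adjusted p = 0.128 and 0.056) and in a fit of these 4 libraries (adjusted p = 0.356); the length offset gave 2.63. With the replicate number as a block, the call of Epcam-positive cells against fetal TEC was lost as well. Spry2 did not pass at day 10 against MEF (1.08 ± 0.53, adjusted p = 0.213) or day 2 (-1.04 ± 0.51, adjusted p = 0.24), or in Epcam-negative cells against MEF (1.12 ± 0.57, adjusted p = 0.255). Epcam-positive against Epcam-negative cells gave -1.27 ± 0.57 (adjusted p = 0.262).

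Spry1 (3:37639947-37644599, plus strand) was at 70.7 and 26.0 CPM in MEF, 8.89 and 8.65 CPM at day 2 and 41.1, 37.4 and 34.1 CPM at day 10. Epcam-positive cells held 34.1 and 3.93 CPM, Epcam-negative cells 38.7 and 34.0 CPM, and fetal TEC 34.7 and 27.4 CPM. Day 2 was lower than every library but Epcam-positive replicate 2, and all neighbours in the order of means overlapped. No comparison passed for Spry1 in the fit of all libraries: the log2 was -2.46 ± 0.81 for day 2 against MEF (unadjusted p = 0.0128, adjusted p = 0.125), 2.10 ± 0.76 for day 10 against day 2 (adjusted p = 0.111) and -0.64 ± 0.77 for fetal TEC against MEF (adjusted p = 0.491). It was -0.37 ± 0.70 at day 10 and -0.41 ± 0.77 in Epcam-negative cells against MEF. A fit of only the groups compared called Spry1 at day 2 against MEF and at day 10 against day 2. Epcam-positive cells gave -0.93 ± 0.77 against Epcam-negative cells (adjusted p = 0.522) and -0.71 ± 0.77 against fetal TEC (adjusted p = 0.496); without Epcam-positive replicate 1 the last was -2.97 and was called (adjusted p = 0.00259).

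Spry4 (18:38586247-38601347, minus strand) was at 17.2 and 11.9 CPM in MEF, 22.2 and 23.0 CPM at day 2 and 30.6, 28.6 and 25.9 CPM at day 10. Epcam-positive cells held 17.1 and 8.81 CPM, Epcam-negative cells 53.8 and 49.0 CPM, and fetal TEC 12.0 and 7.52 CPM. Epcam-negative cells lay above all others, and MEF, Epcam-positive cells and fetal TEC overlapped. Spry4 rose in Epcam-negative cells against MEF by a log2 of 1.83 ± 0.40 (adjusted p = 0.0172), 3.54-fold. This call was lost without Epcam-negative replicate 1 (1.76, adjusted p = 0.109) or 2 (1.89, adjusted p = 0.0839) and without MEF replicate 2 (1.58, adjusted p = 0.135). Epcam-positive against Epcam-negative cells gave -1.99 ± 0.40, which did not pass (unadjusted p = 0.000588, adjusted p = 0.0956). The DESeq2 Wald test called that difference. Spry4 did not pass at day 2 (0.64 ± 0.39), at day 10 (0.97 ± 0.36, adjusted p = 0.106) or in fetal TEC (-0.57 ± 0.39) against MEF, at day 10 against day 2 (0.33 ± 0.36) or in Epcam-positive cells against fetal TEC (0.41 ± 0.39).

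**Figure D3:**
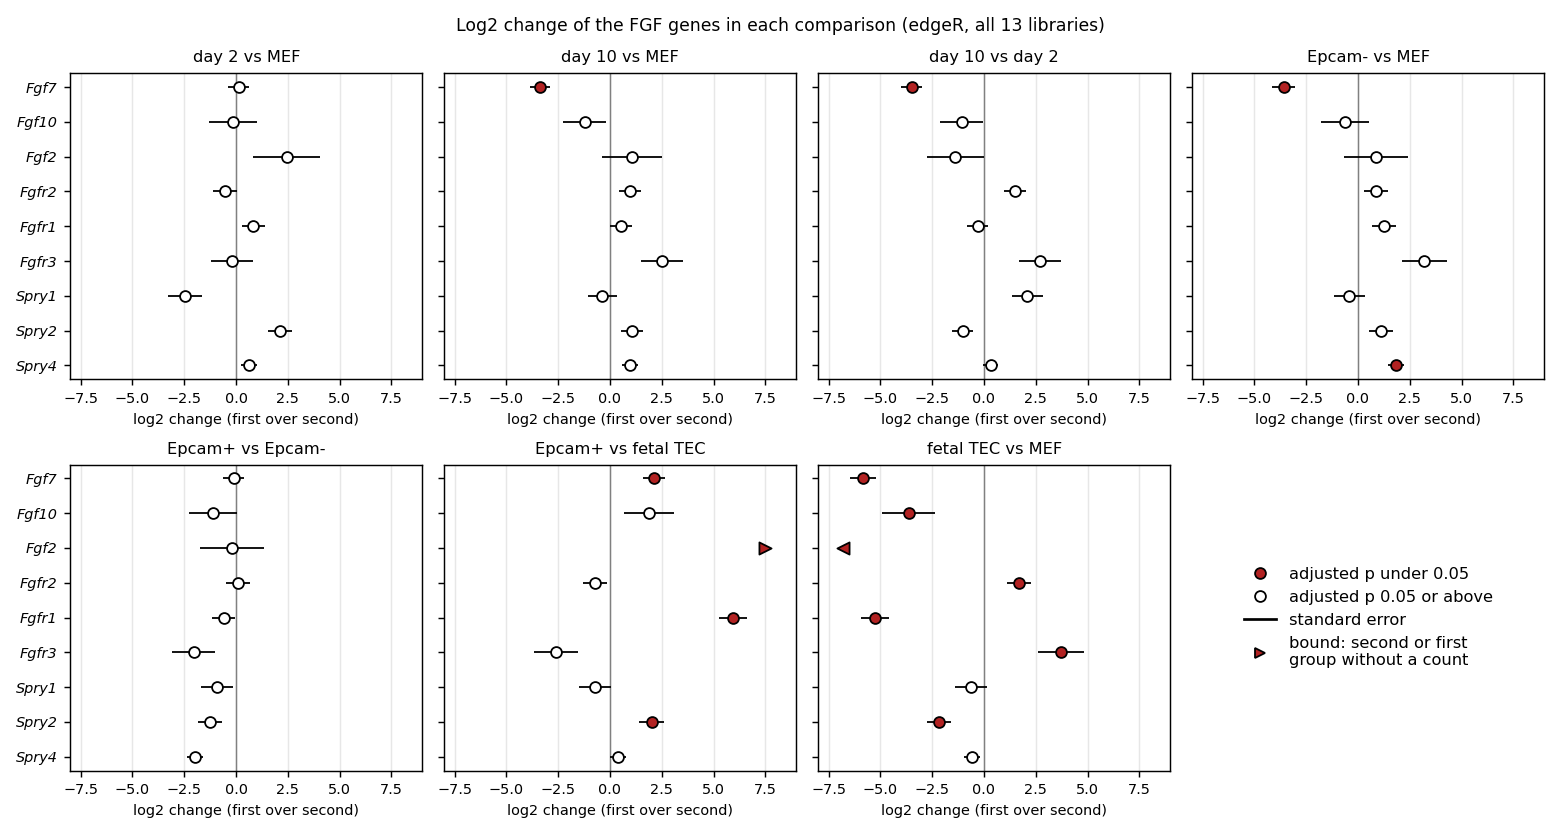
Log2 change of the 9 FGF genes in the 7 comparisons (x axis, first group over second; bars are standard errors from edgeR), filled where the adjusted p was under 0.05; triangles are bounds for Fgf2 where a group had no count. Fgf7 is filled in 5 of the 7 panels, and 7 genes are filled for fetal TEC over MEF.

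By comparison, 0 of the 9 genes were called at day 2 against MEF, where 5.52% of 17004 tested genes were called (2.87% higher, 2.65% lower); 2 of the 9 had an unadjusted p under 0.05 and DESeq2 called 2, Spry1 and Spry2. At day 10 against MEF 1 was called, Fgf7, which was lower; 16.0% of genes were called, 9.42% higher and 6.58% lower. At day 10 against day 2 it was Fgf7 again, where 12.6% of genes were called, 8.24% higher and 4.41% lower. In Epcam-negative cells against MEF 1 was higher and 1 lower, where 11.9% of genes were called, 7.37% higher and 4.53% lower. Epcam-positive against Epcam-negative cells gave 0, where 0.259% of genes were called, 0.241% higher and 0.0176% lower, with 1 at an unadjusted p under 0.05 and 1 called by DESeq2, Spry4 both times. Epcam-positive cells against fetal TEC gave 4, all higher in this fit, where 35.6% of genes were called, 19.2% higher and 16.4% lower. The length offset called 4 higher and 2 lower (Fgfr2 and Fgfr3), and leaving out Epcam-positive replicate 1 gave 2 higher and 3 lower (Fgfr2, Fgfr3 and Spry1); without replicate 2 it was 6 higher and 0 lower. Fetal TEC against MEF gave 7, of which 2 were higher and 5 lower, where 57.8% of genes were called, 31.5% higher and 26.3% lower. With so large a background, the last 2 counts say little about these 9 genes. The median log2 of the 9 was 0.13, 0.96, -0.29, 0.89, -0.93, 1.88 and -2.16 in this order of comparisons, against 0.00, 0.00, 0.02, 0.00, 0.00, 0.17 and 0.18 over all tested genes. The day 2, day 10 and Epcam-negative comparisons share the MEF libraries and are not independent.

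The 13 libraries share 1 estimate of the spread, so the counts of calls were repeated in the 10 libraries without the opposite length trend, a choice made after seeing the data. There, 5 of the 9 genes were called at day 2 against MEF, where 39.5% of 16300 genes were (20.3% higher, 19.2% lower): Fgf2 (2.53 ± 0.18, adjusted p = 2.74e-05), Spry2 (2.18 ± 0.14, adjusted p = 1.77e-05), Fgfr1 (0.90) and Spry4 (0.71) were higher and Spry1 was lower (-2.39 ± 0.40, adjusted p = 0.00237). At day 10 against MEF 8 were called, 6 higher and 2 lower (56.6% of genes, 29.4% higher and 27.3% lower), Spry1 being the exception. At day 10 against day 2 it was 7 (51.4% of genes, 27.2% higher and 24.2% lower), 3 higher, among them Fgfr2 (1.47 ± 0.29, adjusted p = 0.00374) and Spry1 (2.06 ± 0.38, adjusted p = 0.00251), and 4 lower. In Epcam-negative cells against MEF it was 7 (53.2% of genes, 28.6% higher and 24.6% lower), with Fgf7 the one that was lower. Fgf7 was called in the last 3 of these comparisons as before.

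Among the other FGF family genes, a list that holds intracellular relatives beside the ligands, several that were scarce in MEF rose. Of 19 listed, 14 were tested; 3 rose and 0 fell at day 10 against MEF (9.42% of all genes rose and 6.58% fell), with a median log2 of 2.31 (1.52 with genes at 0 in 1 group set to their bound), against 0.00 over all genes. Fgf14, an intracellular relative that binds sodium channels rather than receptors, rose by 5.72 ± 0.66 (151 ± 2.72 CPM at day 10, 2.87 ± 1.56 CPM in MEF, SD, n = 3 and 2, adjusted p = 0.0005). Fgf1, which binds all FGF receptors, rose by 6.85 ± 1.05 (30.7 ± 1.84 CPM, against 0.265 ± 0.0226 CPM in MEF, adjusted p = 0.00236). Fgf9, a ligand of mesenchymal receptor forms, rose by 6.56 ± 1.20 (48.3 ± 1.07 CPM, against 0.514 ± 0.180 CPM, adjusted p = 0.00594). The Fgf9 call was lost without either MEF library.

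These genes came up between day 2 and day 10. Of this list, 4 genes were higher at day 10 than at day 2 and 0 were lower (8.24 and 4.41% of all genes). Fgf14 was higher by 5.60 ± 0.65, Fgf9 by 8.67 ± 1.34 and Fgf1 by 6.38 ± 1.02. Fgf12, another intracellular relative, was at least 105-fold higher (2.38 ± 0.473 CPM, no count at day 2, adjusted p = 0.00226). Fgf1 was not called without either day 2 library, and Fgf9 had 17 counts at day 2, all in 1 library. At day 2 against MEF 0 genes of this list rose and 2 fell (2.87 and 2.65% of all genes), Fgf12 and Fgf21, calls lost in 4 and 12 of the other fits. In fetal TEC against MEF 5 rose and 1 fell (31.5 and 26.3% of all genes), led by Fgf14 and by Fgf21, a hormone made mainly by the liver. Fgf21 was at 242 and 399 CPM in fetal TEC, against 2.56 and 2.13 CPM in MEF (log2 7.09 ± 1.04, adjusted p = 0.000836; 5.45 with the length offset). In Epcam-positive cells Fgf21 was at 1.62 and 15.2 CPM.

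Receptors beyond the 3, co-receptors and FGF-binding proteins moved both ways: of 18 tested, 4 rose and 3 fell at day 10 against MEF (9.42 and 6.58% of all genes). Fgfbp1, a carrier that frees FGFs from the matrix, was at 11.3 ± 1.41 CPM at day 10 and had no count in MEF, at least 461-fold higher (adjusted p = 0.000197). Kl, the co-receptor Klotho, was at 8.96 ± 0.234 CPM at day 10 with no count in MEF, at least 365-fold higher (adjusted p = 0.014), a call lost without either MEF library. Ncam1, an adhesion protein that binds FGFR1, fell by 5.07 ± 0.48 (16.8 ± 0.872 CPM at day 10, 562 ± 202 CPM in MEF), and Nrp1 fell by 2.26 ± 0.24. At day 2 against MEF, 0 of the 18 rose and 5 fell (2.87 and 2.65% of all genes). In fetal TEC against MEF, 5 rose and 10 fell (31.5 and 26.3% of all genes), with Fgfbp1 at 48.8 ± 21.1 CPM and Sdc2, a syndecan, lower by -4.99 ± 0.29.

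Splicing factors were examined because Esrp1 and Esrp2 direct Fgfr2 to its epithelial form. Of 5 tested, 2 rose and 0 fell at day 10 against MEF (9.42 and 6.58% of all genes). Esrp1 was at 3.42, 2.66 and 4.09 CPM at day 10 and had no count in MEF or at day 2, at least 138-fold higher than MEF (adjusted p = 0.00495). Esrp2 rose by 2.88 ± 0.50 (17.3 ± 0.713 CPM, against 2.34 ± 0.123 CPM in MEF, adjusted p = 0.00456). Fetal TEC held more of both, with 30.2 and 17.2 CPM of Esrp1 and 38.1 and 48.5 CPM of Esrp2. Epcam-positive cells held 4.16 and 1.33 CPM of Esrp1, against 0.962 and 0.140 CPM in Epcam-negative cells, and for Esrp2 9.58 and 31.4 CPM, against 4.61 and 3.52 CPM. None of the 5 passed between the day 12 groups, where 0.259% of all genes were called.

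Part of the targets and feedback genes of FGF and ERK signalling rose early. Of 19 tested, 5 rose and 0 fell at day 2 against MEF, where 2.87% of all genes rose and 2.65% fell (median log2 0.47, against 0.00 over all genes). The ERK phosphatases Dusp4 (3.32 ± 0.52, adjusted p = 0.00547), Dusp5 (2.78 ± 0.42, adjusted p = 0.00437) and Dusp6 (1.46 ± 0.31, adjusted p = 0.0256) rose. So did the ETS factor Etv4 (3.76 ± 0.58, adjusted p = 0.0053) and the AP-1 factor Fosl1 (3.48 ± 0.51, adjusted p = 0.00361). The Dusp6 call was lost in 9 of the other fits, among them those without either library of day 2 or of MEF, and that of Dusp4 without MEF replicate 2 (3.09, adjusted p = 0.0747).

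By day 10 part of this set was lower again: against day 2, 2 rose and 5 fell (8.24 and 4.41% of all genes). Dusp6 was at 17.3 ± 0.822 CPM at day 10, against 131 and 124 CPM at day 2 (-2.88 ± 0.28, adjusted p = 0.000282). Dusp5 (-2.90 ± 0.36) and Fosl1 (-3.13 ± 0.43) were lower as well. Myc, a growth regulator, fell by 1.88 ± 0.33 and was no longer called without either day 2 library. Against MEF, 7 rose and 3 fell at day 10 (9.42 and 6.58% of all genes), among them Ier2 (3.12 ± 0.43) and Fos (2.57 ± 0.46), higher, and Dusp6 (-1.42 ± 0.28) and Myc (-2.17 ± 0.34), lower; the Fos call was lost without MEF replicate 1. In fetal TEC against MEF, 7 rose and 6 fell (31.5 and 26.3% of all genes), with Fos 7.30 ± 0.60 higher and Ccnd1, cyclin D1, lower by -4.28 ± 0.31.

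**Figure D4:**
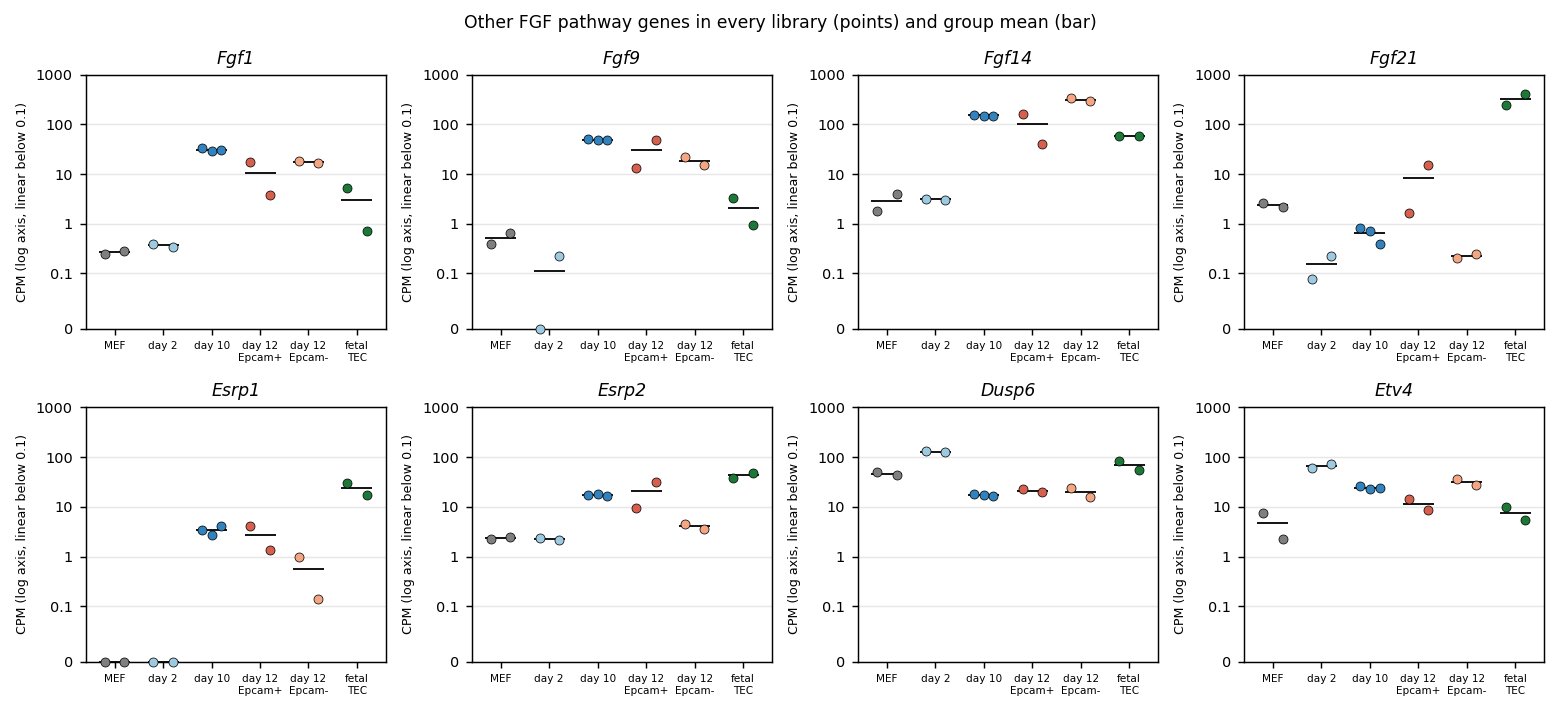
Level of 8 further FGF pathway genes in every library (CPM, log axis that is linear below 0.1; points are libraries, bars group means). Fgf1, Fgf9 and Fgf14 are high from day 10 on in iTEC, Fgf21 in fetal TEC (242 and 399 CPM), Esrp1 has no count in MEF and at day 2, and Dusp6 and Etv4 peak at day 2 among MEF and iTEC.

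The kinases and adaptors between receptor and ERK were mostly not called in iTEC, as was true of most tested genes. Of 19 tested, 0 passed at day 2 against MEF, where 5.52% of all genes were called (2 of the 19 had an unadjusted p under 0.05 and DESeq2 called 2). At day 10 against MEF 1 rose (Map2k1, 1.01 ± 0.29, adjusted p = 0.0437), where 16.0% of all genes were called. At day 10 against day 2 1 rose (Gab1, 1.90 ± 0.51, adjusted p = 0.0364), where 12.6% of all genes were called. Each of these calls was lost in more than 10 of the other fits. In fetal TEC against MEF, where 57.8% of all genes were called (31.5% higher, 26.3% lower), 4 rose and 9 fell. The share called is near that background, with a median log2 of -1.01, against 0.18 over all tested genes. Among those lower were the docking protein Frs2 (-5.31 ± 0.95, adjusted p = 0.00217) and the adaptor Grb2 (-1.26 ± 0.26, adjusted p = 0.00381). With the length offset Frs2 was at -3.31 and still called, and without fetal TEC replicate 1 it was at -6.03.

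Heparan sulfate, the sugar chain that FGFs need to bind their receptors, is built and trimmed by the enzymes of a list of 16 genes, which also holds the core protein Hspg2 (perlecan). At day 2 against MEF 0 of 16 passed in edgeR, where 5.52% of all genes were called. Of the 16, 3 had an unadjusted p under 0.05 and DESeq2 called 2. At day 10 against MEF, 1 rose (Hs3st1) and 2 fell, where 9.42% of all genes rose and 6.58% fell. Those that fell were the sulfatase Sulf2 (-1.93 ± 0.42, adjusted p = 0.0134) and the sulfotransferase Hs6st2 (-4.52 ± 1.13, adjusted p = 0.0245). All 3 calls were lost without MEF replicate 2, among other fits. In fetal TEC against MEF 1 rose and 9 fell, where 31.5% of all genes rose and 26.3% fell. The 10 of 16 called are a share near the 57.8% of all genes, but the median log2 was -2.20, against 0.18 over all tested genes. Hspg2 was at 8.24 and 12.9 CPM in fetal TEC, against 1502 and 982 CPM in MEF (-6.88 ± 1.22, adjusted p = 0.00204), and the epimerase Glce was lower by -4.38 ± 0.64; with the length offset they were at -3.76 and -3.07. The chain polymerase Ext1 (-2.77 ± 0.38) and Hs2st1 (-2.17 ± 0.37) were lower too, but with the length offset they were at -0.44 and -0.23 and did not pass.

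In the fit of the 10 libraries more members of these lists were called, as were more of all genes. Targets and feedback genes had 11 higher and 0 lower of 19 at day 2 against MEF (20.3 and 19.2% of all genes). The list of other FGF family genes had 8 higher and 1 lower of 14 at day 10 against MEF (29.4 and 27.3% of all genes). At day 10 against day 2 the targets split into 6 higher and 8 lower (27.2 and 24.2% of all genes).

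Across the 13 libraries, likeness of pattern was measured as Pearson's r of log2 CPM against 14096 genes, a description in which libraries of a group and their length trend are shared. Closest to Fgf7 were Ttc9c (r = 0.975), Pkp2 (0.971), Igf2bp2 (0.969), Fam21 (0.962) and Lca5 (0.960). For Fgfr2 they were Vstm2b (0.947), Dsg4 (0.931), Kctd14 (0.927), Plb1 (0.922) and Dsg1b (0.919). Fgf10 was closest to Zfp334 (0.980), Cep250 (0.979), Helb (0.979), Itpr1 (0.978) and Zscan20 (0.978). Among the 9 genes, Fgf2 and Spry2 were most alike (0.952), followed by Fgf2 with Fgf10 (0.878), while Fgf7 ran opposite to Fgfr3 (-0.787) and Fgfr2 (-0.761).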

How the data were processed

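Raw counts per gene symbol, deposited by the authors, were used for all 13 libraries without change. The submitters' processing notes name FastQC, Trimmomatic, HISAT2, SAMtools, StringTie and DESeq2 and the mm10 build; they give no versions or settings. Strand use and the handling of reads shared between genes are unknown. The fibroblast columns carry the name No_Cre and were assigned to MEF.

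Counts were tested with edgeR 4.0.16 in R 4.3.3: TMM scaling, filterByExpr by group (17004 of 24394 genes), 1 robust quasi-likelihood fit of all 13 libraries, F tests, and Benjamini-Hochberg adjustment over all tested genes, with calls at an adjusted p under 0.05. Standard errors are the log2 change divided by the square root of F. DESeq2 1.42.0 served as an alternative, beside other scalings, filters, fits of only the groups compared, a replicate block, a length offset (lowess of log count on length), each library left out, and 10 libraries, the last chosen after seeing the data. A gene without a count in a group has a bound from 3 counts over that group, which covers counting error only. The steps were tested on simulated data. Levels per kb use the longest coding transcript in GENCODE M21 basic; coordinates and promoters are from RefSeq. Python 3.11.15, pandas 2.3.3 and matplotlib 3.10.9 made tables and figures.

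All 9 genes are named in every comparison. Of the pathway lists, up to 4 passing members per list with the smallest p are named for day 10 against MEF, day 10 against day 2 and fetal TEC against MEF. Those named for day 2 against MEF were chosen after their values were seen. Members, lists and rules were chosen with earlier results of these data known.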

Additional observations from a re-analysis of the deposited data

How the results depend on the processing

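Counts of calls depended on the fit more than directions did. With the DESeq2 Wald test the numbers of the 9 FGF genes called were 2 (day 2 and MEF), 3 (day 10 and MEF), 4 (day 10 and day 2) and 1 (both day 12 groups), and of all genes 2182, 4221, 3605 and 1594, with 3640 for Epcam-negative against MEF. In fits of only the groups compared they were 3, 7, 9 and 4 FGF genes and 2949, 7959, 10927 and 4996 genes for the first 3 comparisons and Epcam-negative against MEF, 0 genes between the day 12 groups, and 0 FGF genes and 219 genes for Epcam-positive against fetal TEC. The length offset gave 2 FGF genes for day 10 against MEF and 2 against day 2, and 78 genes between the day 12 groups, where library size alone gave 7 and no filter 24. The 10 libraries, a later choice, gave 5, 8, 7 and 7 FGF genes and 6438, 9231, 8373 and 8671 genes. With the replicate number as a block, calls were 391, 1040, 831 and 915 genes in those 4, 1 between the day 12 groups and 3576 genes with 2 FGF genes for Epcam-positive against fetal TEC; same-numbered libraries correlated at -0.228 to 0.147 in their deviations and no label pairs them. Leaving out each library gave 0 to 4, 1 to 6, 1 to 6, 1 to 6, 0 to 8, 1 to 6 and 3 to 7 FGF genes and 299 to 3718, 1028 to 6650, 564 to 5791, 719 to 5899, 0 to 9546, 3829 to 10273 and 5507 to 12611 genes, in the order of comparisons used above for the medians. The log2 changes that turned sign, none called in the fit of all libraries, were at day 2 Fgf7 without day 2 replicate 1 (-0.08) or MEF replicate 1 (-0.26; highest 0.66) and Fgfr3 under the block (0.0501) and without the same libraries (0.10 and 2.32; lowest -1.07), and against MEF Spry1 without MEF replicate 1 (0.50 at day 10, 0.46 in Epcam-negative cells, 0.27 in fetal TEC; lowest -0.92, -0.96 and -1.20). Between the day 12 groups they were Fgf2 (0.79), Fgf7 (0.28) and Fgfr1 (0.12) without Epcam-positive replicate 2 (lowest -11.33, -0.64 and -2.10, that of Fgf2 a fitted value with no count in the remaining library), and Fgfr2 with library size alone (-0.12), the block (-0.0367), without Epcam-negative replicate 2 (-0.20) and without Epcam-positive replicate 1 (-1.29, adjusted p = 0.0257; highest 0.78). Against fetal TEC they were Fgf10 (-1.46; highest 4.10) and Spry4 (-0.14; highest 0.82) without Epcam-positive replicate 1, Spry1 (0.15; lowest -2.97) without replicate 2 and Spry4 (-0.0572) with the length offset, which also gave 0.64 for Spry4 in fetal TEC against MEF. Fgf2 against fetal TEC has no value without Epcam-positive replicate 1. Library size alone made 69.5% instead of 58.9% of calls higher at day 10 and 75.7% instead of 61.9% in Epcam-negative cells against MEF. The cause of these changes was not tested. Fgf7 kept its calls at day 10 and in Epcam-negative cells, and Fgf7 and Fgfr1 theirs in fetal TEC against MEF, in every fit run. No fit can separate the fetal TEC difference from MEF from that of the libraries in length trend, Gapdh and Rn45s.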
